A study of Mus musculus with 11 samples.

Results

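Small RNA precursor features are rows of the RNA-seq tables named after microRNAs, small nucleolar RNAs (snoRNAs), small Cajal body RNAs (scaRNAs) and spliceosomal RNAs. They were taken by name: noncoding RefSeq or MGI rows whose symbol starts with Mir, Snora, Snord, Scarna or Rnu and does not end in hg, the mark of a host gene. Of the 48942 features of the Dcr table, 110 met the rule, and of the 39889 of the cMyc table, 102 did, all of which were among the 110. Of the 110 rows, 80 are microRNA features and 28 form the nucleolar class, with 12 snoRNAs, 5 scaRNAs and 11 snRNA rows. The other 2, Mirg and Mirt1, are long noncoding RNAs that the name rule took in, and they are given apart.

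The libraries came from embryonic stem cells (ESCs) of the mouse strain 129S4/SvJae, kept on gelatin without feeder cells. Dcr WT (2 libraries) is the unmodified comparison for Dcr KO (3 libraries, from lines 1, 3 and 4), which lacks Dicer. A separate pair, 1 library each, was made from cMyc flox/flox cells, whose Myc alleles are floxed and not deleted, and from cMyc KO cells. All 7 RNA libraries were poly(A)-selected and made with the strand-marking dUTP method, paired-end for Dcr and single-end for cMyc, and 4 chromatin libraries were not analysed here. No label says that the Dcr WT replicates were separate cultures, so p-values measure the spread between these libraries, which may be technical. The sources used here do not give how each Dcr KO line was derived, beyond its being a line of its own.

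MicroRNAs are cut from long primary transcripts. Drosha and Dgcr8 release a hairpin in the nucleus, Dicer trims the hairpin in the cytoplasm, and an Argonaute protein loads 1 strand, which finds its targets through the seed near its 5′ end. Many primary transcripts are made by RNA polymerase II and carry a poly(A) tail, whereas hairpins and mature microRNAs do not. Small nucleolar RNAs guide chemical modification of ribosomal RNA, scaRNAs do so for spliceosomal RNAs, and most vertebrate snoRNAs and scaRNAs are trimmed out of introns of host transcripts. Spliceosomal snRNAs are made from genes of their own, and their mature forms lack a poly(A) tail, as do those of snoRNAs. A read on one of these rows in a poly(A)-selected library therefore may come from a primary or host transcript, and it does not measure the mature small RNA.

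The mature microRNAs that the features encode are shown here because members with the same seed moved both together and apart. Of the 80 microRNA symbols, 69 matched a mature sequence in RefSeq (GRCm38.p6), with 120 sequences in all, and 8 seeds were shared by 2 members each. Capitals mark the seed, bases 2 to 8 from the 5′ end.
miR-9-5p (Mir9-1 and Mir9-3): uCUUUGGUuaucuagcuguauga
miR-9-3p (Mir9-1 and Mir9-3): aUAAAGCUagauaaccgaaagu
miR-138-5p (Mir138-1 and Mir138-2): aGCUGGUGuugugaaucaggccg
miR-193a-3p (Mir193a): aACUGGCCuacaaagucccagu
miR-193b-3p (Mir193b): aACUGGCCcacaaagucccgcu
miR-181b-5p (Mir181b-2): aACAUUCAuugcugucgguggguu
miR-181c-5p (Mir181c): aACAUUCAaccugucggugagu
miR-29b-3p (Mir29b-1): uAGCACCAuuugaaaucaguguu
miR-29c-3p (Mir29c): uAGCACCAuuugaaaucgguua
let-7a-5p (Mirlet7a-1): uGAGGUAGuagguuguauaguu
let-7i-5p (Mirlet7i): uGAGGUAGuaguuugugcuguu
miR-379-5p (Mir379): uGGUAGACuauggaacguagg
miR-1193-5p (Mir1193): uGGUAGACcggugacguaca
A further 4 sequences belong to members with no partner of the same seed here that changed in Dcr KO or stand for a known ESC family.
miR-290a-3p (Mir290a): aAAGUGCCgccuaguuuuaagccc
miR-1195 (Mir1195): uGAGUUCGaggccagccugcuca
miR-155-5p (Mir155): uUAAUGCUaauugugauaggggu
miR-34a-5p (Mir34a): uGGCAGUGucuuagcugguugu

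Values are read counts that the authors divided by 1 factor per library, called normalised read counts below, and a log2 fold change is a difference in log2(value + 1), so that it understates changes near 0. Depth was 101815723 to 278006158 recovered reads in the Dcr libraries and 24660365 and 31633011 in the cMyc pair. As a check of the labels, Dicer1 fell in Dcr KO (20132 and 18792 against 8553, 9793 and 7743; log2 fold change −1.17, limma adjusted p = 0.000556), and Myc stood at 470.0 and 10.9 in the cMyc flox and KO libraries. All 10 ESC markers on a list were detected in each Dcr library, 1 higher and 1 lower. Of 7 fibroblast markers 6 were tested, 4 lower and 1 higher in Dcr KO, with summed levels of 5462 and 10683 in Dcr WT libraries 1 and 2 and of 828 to 1280 in Dcr KO. Of 5 primitive endoderm markers 2 were lower, with sums of 5530 and 3002 in Dcr WT and 2564 to 3509 in Dcr KO. Of 4 neural markers 2, Pax6 and Neurog1, were higher, with sums of 34572 and 16811 against 26998 to 38780.3. Of the blood markers, Hbb-bt was at 0 in all 5 libraries, and Ptprc stood at 0 and 11.9 in Dcr WT and at 0, 1.53 and 0 in Dcr KO. The part of these other cell types in any result below was not tested, and in bulk RNA fewer cells of a type and less RNA per cell cannot be told apart. A pair of libraries stand apart over the members: Dcr KO line 1 at the Dlk1-Dio3 locus and Dcr WT library 2 over scaRNAs and snRNAs. Results that rest on either are given with and without it. A fit without 1 Dcr WT library leaves 1 wild-type library, so the spread behind its p-values comes from the Dcr KO lines alone. Calls kept or lost in such a fit, here or below, carry no measure of wild-type spread.

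MicroRNA features changed in both directions in Dcr KO. Of the 80, 74 reached a value of 1 in 2 or more libraries and were tested, and 19 were called higher and 13 lower (limma, adjusted p under 0.05 over all 42358 features tested). Over all features 16.9% were called higher and 14.8% lower in the same fit, against 25.7% and 17.6% of the tested microRNA features. Among the 1240 other noncoding RefSeq and MGI features tested, 8.79% were higher and 13.2% lower. The median log2 fold change was −0.09 over the 74 microRNA features and 0.08 over all features. Leaving out the 10 microRNAs of the Dlk1-Dio3 locus, all negative in this fit, positive in edgeR and DESeq2, and not called in any of the 3, the median of the other 64 was 0.28. The 6 members not tested were Mir133a-2, Mir1899, Mir99a, Mir202, Mir217 and Mir875, and the last 3 had 0 reads in every library.

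Some microRNA features near 0 in wild-type cells were higher in Dcr KO. Mir1195 had 0 reads in both Dcr WT libraries and normalised read counts of 33.7, 51.9 and 36.7 in Dcr KO lines 1, 3 and 4, at least 21.7-fold higher when 3 reads over both wild-type libraries are taken as the floor. Mir1983 stood at 0 and 2.74 in Dcr WT and 23.1, 32.1 and 19.9 in Dcr KO, with a log2 fold change of 3.72, which became 2.77 when Dcr WT library 1 was left out and 4.67 when library 2 was. Each knockout line lay above both wild-type libraries for these features, which passed the filter on low values only through Dcr KO. They are counted among the 19. Mir181b-2, of a family known from lymphocyte and neural differentiation, went from 2.01 and 5.48 to 55.01, 55.8 and 57.4 (log2 fold change 3.69 ± 0.55, SE; adjusted p = 0.00128). Mir181c, which has the same seed, rose from 175 and 107 to 347, 338 and 357 (1.34 ± 0.27; adjusted p = 0.00598). The 3 knockout lines were close to each other for Mir181b-2 (SD 1.22) and did not overlap with Dcr WT for either feature.

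Mir1932 had the highest level of any microRNA feature, and it rose. Its normalised read count was 15533 and 13642 in Dcr WT and 80587, 93769.6 and 71293 in Dcr KO, which is 5.61-fold higher (log2 fold change 2.48 ± 0.16, adjusted p = 2.57e-05). The annotation places Mir1932 inside Rnf213, a large ubiquitin ligase gene, on the same strand. Per 100 bases its row held 61072 normalised counts over the 5 libraries, a level only Snora30 exceeded among the members. The sources used here do not give whether a row holds reads of the short hairpin alone or of a wider locus.

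Both members with the miR-193 seed rose. Mir193b, known for its part in brown fat and in restraining cell growth, went from 90.5 and 120.5 in Dcr WT to 563, 549.9 and 590.0 in Dcr KO (log2 fold change 2.43 ± 0.24, adjusted p = 0.000139). Mir193a stood at 113 and 139.7 and at 252, 342 and 332 (1.28 ± 0.27; adjusted p = 0.00639). Mir365-2, of a microRNA family whose genes lie beside the miR-193 genes, rose from 326 and 315 to 859, 872 and 793 (1.39 ± 0.19; adjusted p = 0.000774). All 3 features were higher in every knockout line than in either wild-type library.

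Mir29b-1, whose mature form is known to target collagen and DNA methyltransferase mRNAs, rose from 16.1 and 31.95 to 110.0, 113 and 129 (log2 fold change 2.31 ± 0.40, adjusted p = 0.00278). Mir29c, with the same 3p seed, stood at 38.2 and 49.3 and 33.7, 30.6 and 39.03 and did not pass (−0.33, adjusted p = 0.575). The genotypes overlapped for Mir29c and not for Mir29b-1, and the difference between these features was not tested. Mir30b rose from 121 and 142 to 376, 491 and 412 (1.69, adjusted p = 0.00105). Its neighbour within 10 kb in the annotation, Mir30d, stood at 469 and 647 and 840.2, 779.9 and 743 (0.51, adjusted p = 0.0872). The log2 fold change of Mir30d was 0.75 without Dcr WT library 2. Another member of that family, Mir30c-2, was not called (0.29, adjusted p = 0.496).

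Mir290a, the first hairpin of the cluster that supplies the most abundant microRNAs of mouse ESCs, also rose. In Dcr WT it was at 2806 and 4853, and in Dcr KO lines 1, 3 and 4 at 7569, 9513 and 9831 (log2 fold change 1.27 ± 0.23, adjusted p = 0.003301). Mir205, known from epithelia, went from 101 and 191 to 370.0, 469.7 and 379.6 (adjusted p = 0.00521). Mir582 rose from 139 and 208 to 436, 563 and 523 (1.56), and the row of the gene around it on the same strand, Pde4d, which encodes a cAMP phosphodiesterase, rose as well (1.23, adjusted p = 0.000357). Mir101a, known to target the Polycomb gene Ezh2, rose from 954 and 827 to 1503, 2553 and 1931 (1.13, adjusted p = 0.005597). Mir1191 rose by less, from 1517 and 1598 to 2709.6, 2329 and 2984 (0.77, adjusted p = 0.00782). With no filter on low values Mir290a, Mir205 and Mir101a were not called (adjusted p = 0.0638, 0.0553 and 0.0636). For all 19 features called higher, each knockout line was above both wild-type libraries. The calls rest on these same values, so a lack of overlap in a called feature, here or elsewhere, is no separate support.

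Of the 19, 15 kept their call when any 1 library was left out, and 4 did not. Over all features calls also fell without a line, from 7171 higher and 6273 lower to 4386 and 4335 without line 1. They fell to 3782 and 3847 without line 3 and to 4378 and 4275 without line 4. A call lost without a line, here or below, therefore does not single out that line. Mir222, known for targeting cell-cycle inhibitors, stood at 4.02 and 20.1 and 47.02, 32.8 and 45.1 (2.03), and came to 1.000 when Dcr WT library 1 was left out and 3.07 when library 2 was. Together with Mir680-2 (1.15) and Mir331 (0.69), it lost its call without library 1 or any 1 knockout line (adjusted p up to 0.174, 0.128 and 0.164). Mir680-2 stood at 30.2 and 42.9 and 73.6, 75.6 and 96.4, and Mir331 at 231 and 277 and 397, 457 and 374. Mir9-3 lost its call without Dcr WT library 2 or any 1 line, and is described below with its paralog.

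**Figure D1:**
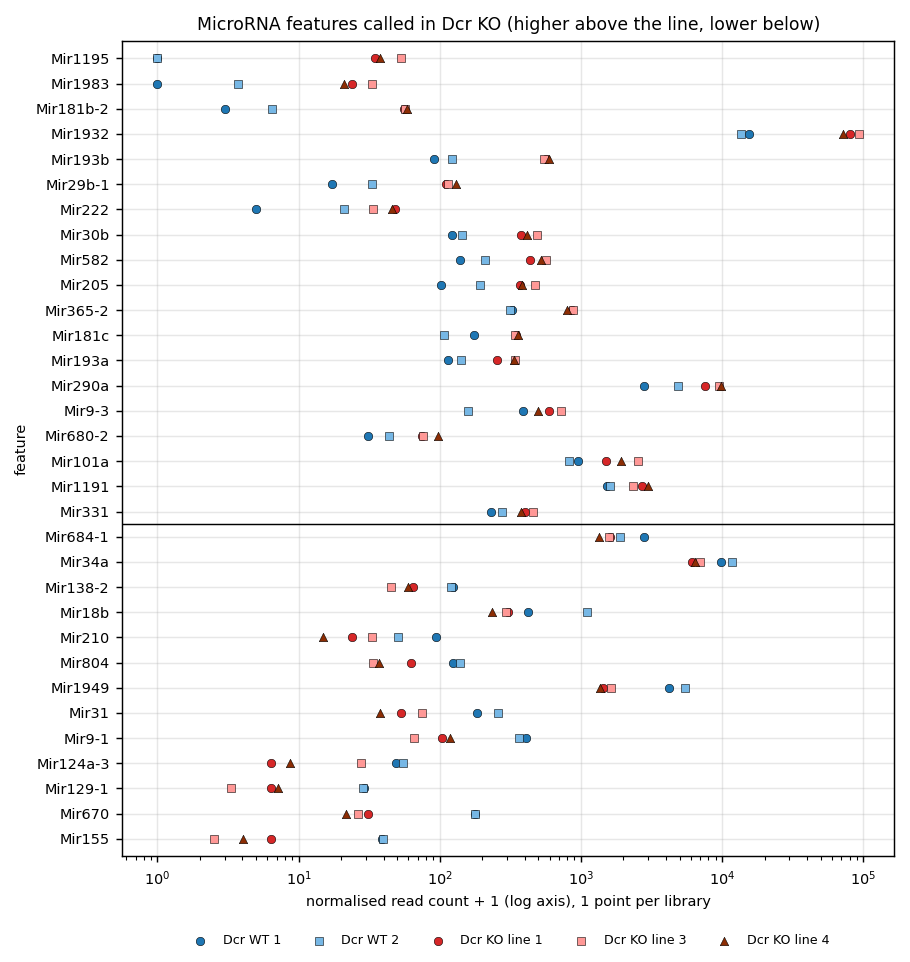
Normalised read count + 1 on a log axis for the 32 called microRNA features, with 1 point per Dcr library and features ordered by log2 fold change. The 19 features above the line were called higher and the 13 below it lower, and in each the 3 Dcr KO lines lie on one side of the 2 Dcr WT libraries. The calls rest on these same values.

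Among the features called lower, Mir155 changed most. Mir155, known from activated immune cells, stood at 38.2 and 38.3 in Dcr WT and at 5.32, 1.53 and 3.06 in Dcr KO (log2 fold change −3.29 ± 0.69, adjusted p = 0.00668). Mir670 fell 7.004-fold, from 177 and 178 to 30.2, 25.2 and 20.7 (−2.78, adjusted p = 0.000757). Mir31 went from 181 and 257 to 52.3, 73.3 and 36.7 (−2.03, adjusted p = 0.00406). In these 3 features the lowest wild-type value was more than 2 times the highest knockout value.

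Of the 3 features called lower with a mean above 1000, Mir34a and Mir1949 are given here and Mir684-1 below. Mir34a, a well-known target of p53 that restrains cell-cycle genes, stood at 9889.7 and 11771 in Dcr WT and 6083, 6944 and 6425 in Dcr KO (−0.74 ± 0.15; adjusted p = 0.00536). Mir1949 fell 3.302-fold, from 4235 and 5489 to 1433, 1627 and 1357 (−1.71, adjusted p = 0.000181). Both had no overlap between genotypes, and both kept their call without any 1 library. So did Mir155, Mir670, Mir31 and Mir9-1, 6 of the 13 in all.

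The other 7 calls were lost in some fit without 1 library. Mir129-1, a brain microRNA, stood at 28.2 and 27.4 and 5.32, 2.29 and 6.12 (−2.44) and was lost without either wild-type library, line 1 or line 3 (adjusted p up to 0.0786). Mir124a-3, of the neuronal miR-124 family, stood at 48.3 and 53.9 and 5.32, 26.7 and 7.65 (−2.18), was at −2.81 without line 3, and was lost without either wild-type library, line 1 or line 4 (up to 0.122). Mir804 went from 123 and 137 to 61.2, 32.8 and 35.97 (−1.61) and was lost without line 3 or line 4 (up to 0.0582). These were features of at most 137 normalised counts in any library.

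Mir18b belongs to the Mir106a-363 cluster, a paralog of the Mir17-92 cluster that Myc is known to activate. The wild-type libraries 1 and 2 differed, at 420.5 and 1111, and the knockout lines were at 305, 293 and 235. Its log2 fold change was −1.31, but −2.005 without library 1 and −0.61 without library 2, and the call was lost without library 2 or any 1 line (up to 0.114). Mir210, the microRNA induced by hypoxia, stood at 92.5 and 49.3 and 23.1, 32.1 and 13.8 (−1.59), and Mir684-1 at 2814 and 1881 and 1606, 1589 and 1340.0 (−0.61). Both were lost without library 1 or any 1 line (up to 0.178 and 0.247).

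The Mir9 rows moved in opposite directions although their hairpins give identical mature microRNAs, shown above. MiR-9 is abundant in the developing nervous system. Mir9-1 fell from 406 and 361 in Dcr WT to 103, 64.2 and 118 in Dcr KO (−2.05 ± 0.32; adjusted p = 0.00161). Mir9-3 rose from 390.3 and 157 to 594, 717 and 496 (1.26 ± 0.36; adjusted p = 0.0249), a change of 1.92 if Dcr WT library 1 is left out and of 0.61 if library 2 is, where it was not called (adjusted p = 0.0875). The call was also lost without any 1 knockout line (adjusted p up to 0.104). The sum and the shares assume that each row holds reads of its hairpin alone, of 89 and 90 bases, which was not checked. The sum was 797 and 519 in Dcr WT and 696, 781 and 614 in Dcr KO, which overlap, while the share from Mir9-1 was 51.0% and 69.7% in Dcr WT and 14.8%, 8.21% and 19.2% in Dcr KO.

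**Figure D2:**
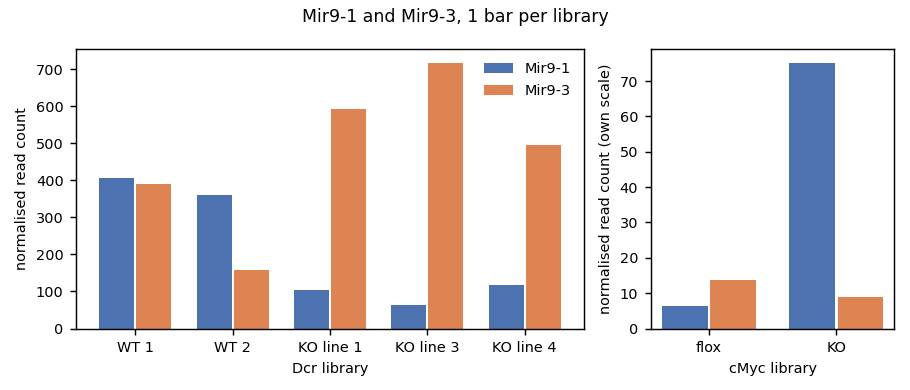
Normalised read counts of Mir9-1 and Mir9-3, 1 bar per library and no error bars, for the 5 Dcr libraries on the left and the cMyc pair, on its own scale, on the right. Mir9-1 is at most 118 in each Dcr KO line and at least 361 in both Dcr WT libraries, and it is the higher of the pair in cMyc KO.

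Mir138-1 and Mir138-2, which share miR-138-5p, did not move alike. Mir138-2 went from 123 and 119 to 63.9, 44.3 and 58.2 (−1.12, adjusted p = 0.03401) but lost its call without any 1 of the 5 libraries (up to 0.1201). Mir138-1 stood at 133 and 21.9 and 74.5, 112 and 186, with overlap, and was not called (1.08, adjusted p = 0.249), except without Dcr WT library 1 (2.35, adjusted p = 0.00124). Mir124a-1, the far more abundant paralog of Mir124a-3, stood at 2786 and 1253 and 2593, 2944 and 2342 and was not called (0.48). Without Dcr WT library 1 its log2 fold change was 1.06.

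Members of other families known from ESC biology did not pass the test. The let-7 family, which is held back in ESCs by Lin28, was represented by Mirlet7a-1 at 867 and 1517 and 1409, 1417 and 1319 (0.27, adjusted p = 0.409) and Mirlet7i at 111 and 31.04 and 35.5, 60.3 and 39.8 (−0.41, adjusted p = 0.604). Without Dcr WT library 2 the log2 fold change was 0.67 for Mirlet7a-1 and −1.31 for Mirlet7i. Of the epithelial miR-200 family, Mir429 stood at 779 and 1379 and 814, 748 and 733 (−0.44, adjusted p = 0.2001), and was at −0.85 without Dcr WT library 1. Mir141 of the same family stood at 56.3 and 70.3 and 45.2, 63.4 and 52.04 (−0.24, adjusted p = 0.653). Mir145a, known to repress pluripotency factors, was low at 36.2 and 20.1 and 15.97, 21.4 and 19.9 (−0.49, adjusted p = 0.501).

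Mir675, which is made from the imprinted H19 transcript, varied widely within each genotype. Dcr WT libraries 1 and 2 were at 3663 and 8868 and Dcr KO lines 1, 3 and 4 at 3386, 2898 and 752, so that all 3 lines were below both libraries, with line 1 close to library 1 and line 4 lowest. It was not called by limma (−1.55, adjusted p = 0.0708) or DESeq2 (adjusted p = 0.213), and was called lower by edgeR (adjusted p = 0.0447) and by limma without Dcr WT library 1 (−2.19, adjusted p = 0.00326). Without line 4 its log2 fold change was −0.86. Some of the 32 microRNA features outside the Dlk1-Dio3 locus that were tested and not called gained a call without 1 library. How often features in general do so was not counted, so this is not a result about microRNA features.

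The Dlk1-Dio3 locus is an imprinted region whose maternal copy expresses long noncoding RNAs and a large microRNA cluster, and 11 members lie between the genes Dlk1 and Dio3 in the annotation. They are the microRNA features Mir1193, Mir136, Mir1906-1, Mir299a, Mir300, Mir379, Mir433, Mir453, Mir487b and Mir673 and the lncRNA Mirg, and none was called. All 11 were lowest in Dcr KO line 1, at 0 to 7.73% of the Dcr WT mean, and line 1 held at most 2.89% of the mean of lines 3 and 4. Over the 64 other microRNA features tested, line 1 held a median of 95.5% of that mean.

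Mir453 stood at 4275 and 3297 in Dcr WT and at 66.5, 8173 and 9651 in lines 1, 3 and 4. Mir1906-1 stood at 2718 and 3014 and 36.4, 4165 and 6903, Mir136 at 1511 and 1753 and 37.3, 3468 and 4935, and Mir1193 at 1646 and 2656 and 18.6, 3403 and 5755. Line 1 was thus far below, and lines 3 and 4 above, both wild-type libraries for each of them. Mir299a and Mir379 had 0 reads in line 1, where 3 reads would be a value of 2.66, against Dcr WT means of 31.0 and 141. The lncRNA Mirg, which hosts part of the cluster, stood at 326 and 347 and 5.32, 749 and 926. In lines 3 and 4 the mean was 1.86 to 3.94 times the Dcr WT mean over the 11 members, and for 10 of them both lines exceeded both wild-type libraries.

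The fold change of the locus in the full fit is a mean over lines that go opposite ways. For the 11 members it ran from −1.81 to −0.02, and without line 1 from 0.82 to 2.002, with 6 called higher by limma: Mir136 (1.35, adjusted p = 0.0149), Mir433, Mir453, Mir487b, Mir673 and Mirg. Over all features that fit called 4386 of 42071 higher, and line 1 was singled out by these same members. With all 5 libraries the count models gave positive fold changes for all 11, from 0.26 to 1.296 in edgeR and from 0.31 to 1.39 in DESeq2, with none called, and the ratio of the Dcr KO to the Dcr WT mean was 1.24 to 2.63. The lncRNAs of the same locus were also lowest in line 1 and highest in lines 3 and 4, Meg3 at 38979.5 and 32396 in Dcr WT and 555, 63852 and 89316 in Dcr KO and Rian at 26356 and 29036 and 363, 40964 and 57066. Without line 1 both were called higher (Meg3 1.09 and Rian 0.81), and neither was called in the full fit. Dlk1, a protein-coding gene expressed from the other parental copy, stood at 2871 and 1767 and 309.6, 736 and 856 and was lower with line 1 and without it.

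**Figure D3:**
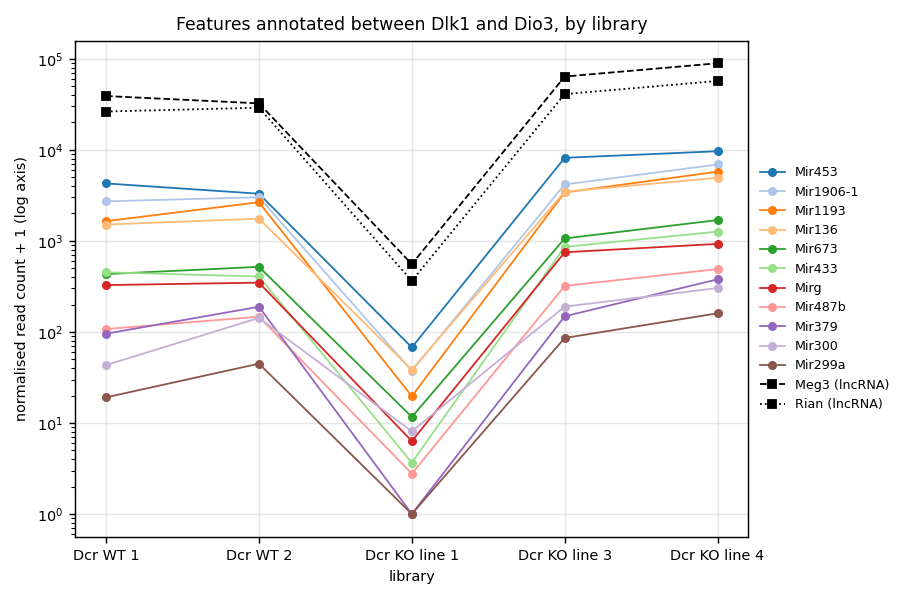
Normalised read count + 1 on a log axis for the 11 members between Dlk1 and Dio3 and the lncRNAs Meg3 and Rian in each Dcr library, with lines joining the values of a feature and no error bars. Every curve has its lowest point at Dcr KO line 1, where the members are at 0 to 66.5.

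In the nucleolar class the calls went in 1 direction. All 28 rows were tested, and 0 were called higher and 7 lower in Dcr KO, which is 25.0% of the rows against the 14.8% called lower over all features. At an unadjusted p under 0.05, 1 was higher and 11 lower, a threshold at which all features were not counted. On the recovered reads edgeR and DESeq2 called 12 and 11 lower, against 6957 of 37984 and 6835 of 43956 over all features. The median log2 fold change was −0.83, and 25 of 28 were negative, but Dcr WT library 2 was the highest library in 19 of the 28. Without it the median was −0.24 over the 18 scaRNA, snRNA, Rnu3a and Snord13 rows and −0.69 over the 10 other snoRNAs. Of the 12 snoRNAs 6 were called lower, of the 5 scaRNAs 1, and of the 11 snRNA rows 0. Without Dcr KO line 1, 3 or 4 the class had 4 called lower, against 4335 of 42071, 3847 of 41900 and 4275 of 41884 over all features.

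Box C/D snoRNAs, the Snord rows, guide the methylation of ribosomal RNA. Snord49b stood at 7319 and 11166 in Dcr WT and 3450.5, 3804 and 3942 in Dcr KO, 2.48-fold lower (−1.28 ± 0.19; adjusted p = 0.00125). Snord17 went from 362 and 260.2 to 133, 147 and 129 (−1.17, adjusted p = 0.0102) and Snord87 from 6005 and 4900.3 to 2959.8, 3016 and 2640.1 (−0.92, adjusted p = 0.00263). Snord99 fell from 6383 and 5316 to 3256, 3681 and 3358 (−0.77, adjusted p = 0.00547). The genotypes did not overlap for any of these features, and all 4 kept their call without any 1 library.

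Smaller falls were seen in the most abundant C/D rows. Snord22 stood at 19232 and 22672 and 14343, 16213 and 14465 (−0.48, adjusted p = 0.0307), and lost its call without Dcr WT library 2 or any 1 line (up to 0.102). Snord52 stood at 16028 and 15515 and 10592, 12220.3 and 10518 (−0.51, adjusted p = 0.0215), and lost it without any 1 line (up to 0.07797). Snord123 stood at 917 and 668 and 488, 562 and 491 (−0.61, adjusted p = 0.05403), and Snord104 at 1094 and 1291 and 1121, 1179 and 891 (−0.17, adjusted p = 0.531). Neither was called, and Snord123 was at −0.84 without Dcr WT library 2.

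Not all abundant snoRNA rows were lower. Snora30, a box H/ACA snoRNA of the kind that guides pseudouridylation, had the highest level of all members, at 107320.0 and 91230.2 in Dcr WT and 125331, 131537 and 129668 in Dcr KO. Each line was above both wild-type libraries, but the change did not pass (0.38 ± 0.14; limma adjusted p = 0.0623). Snora30 passed with upper quartile or coding-feature scaling or with a stricter filter on low values, and was at 0.498 without Dcr WT library 1. The annotation places it inside Srcap, a chromatin remodeller gene, with no strand given. Snord93 stood at 7673 and 5379.6 and 8242, 8353 and 6467, with overlap (0.25, adjusted p = 0.346). It was called higher without Dcr WT library 1 (0.51, adjusted p = 0.0465).

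The scaRNA and snRNA rows, with U3 (Rnu3a) and Snord13, were set apart by 1 wild-type library. Dcr WT library 2 had the highest value of the 5 libraries in 16 of these 18 rows, against 3 of the 10 other snoRNAs, and its ratio to Dcr WT library 1 had a median of 2.68. For Scarna17 Dcr WT libraries 1 and 2 were at 6.04 and 749 and the knockout lines at 30.2, 30.6 and 12.2. Rnu3a stood at 2.01 and 85.8 against 3.55, 4.58 and 10.7, Rnu12, an RNA of the minor spliceosome, at 16.1 and 166 against 21.3, 22.9 and 35.97, and Rnu5g at 12.1 and 104 against 8.87, 8.402 and 14.5. In these 4 rows library 2 was above every other library, at 8.62 to 124 times library 1. Library 1 was below all 3 knockout lines for Scarna17, Rnu3a and Rnu12, and between them for Rnu5g. Among rows outside the class, 7SK was lowest in library 1 (1760) and highest in library 2 (10685), with 7521, 6481 and 5791 in Dcr KO. The 7SL row was highest in library 1 (47650, against 15278 in library 2), with 2416, 3784 and 6384 in Dcr KO. The rows tRNA-Leu-CTY and tRNA-Tyr-TAC were highest in library 2 (119 and 96.8).

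Of the 18 rows 1 was called, Scarna13, at 141 and 248 and 69.2, 93.2 and 88.00 (−1.17, adjusted p = 0.0298). It lost its call without Dcr WT library 2 or any 1 line (up to 0.1501). The median log2 fold change of the 18 was −0.93, and it came to −1.43 without Dcr WT library 1 and to −0.24 without library 2. Scarna2, the most abundant of them, stood at 1086 and 2993 and 855, 899.8 and 1301 (−0.85, adjusted p = 0.1104). Over the 10 other snoRNAs the median was −0.56, with −0.54 without Dcr WT library 1 and −0.69 without library 2. In the full fit 6 of the 10 were called lower, against 14.8% over all features. The U1 rows (Rnu1b2 and Rnu1b6) are near-identical copies, as are the Rnu2 rows, so that the share of reads given to each copy is uncertain. Rnu11, Rnu12 and Rnu5g are different RNAs. Levels of the snRNA rows were low, at 6.11 to 166 normalised counts.

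**Figure D4:**
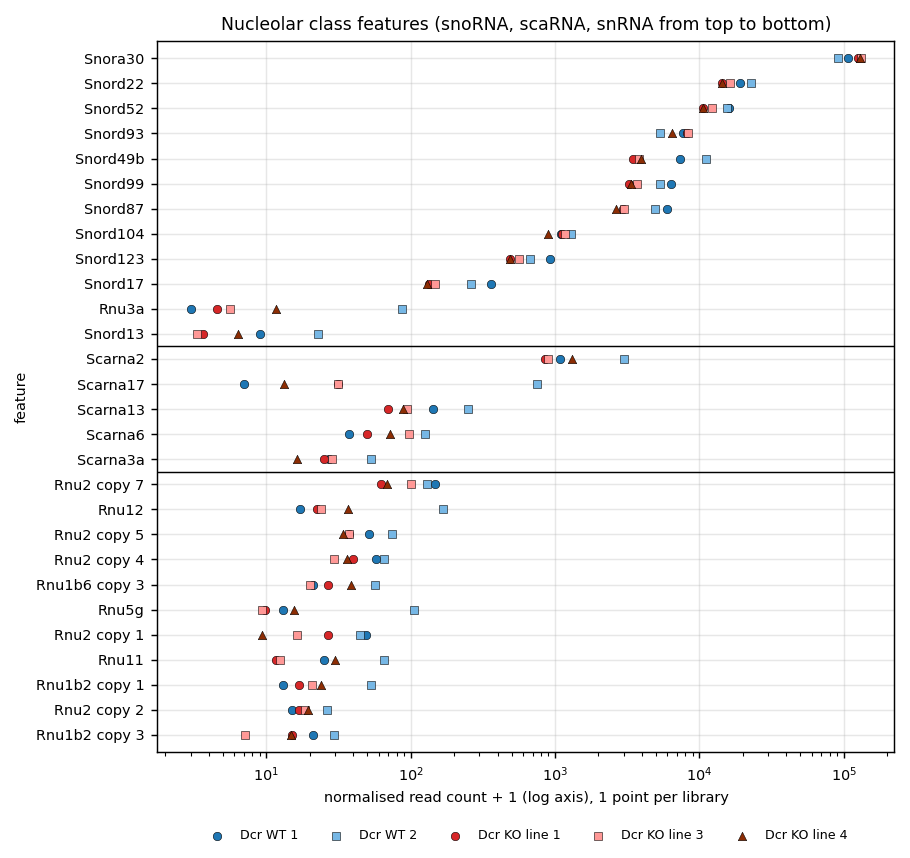
Normalised read count + 1 on a log axis for the 28 nucleolar class rows, with 1 point per Dcr library and rows grouped as snoRNA, scaRNA and snRNA and ordered by mean level. Dcr WT library 2 is the rightmost point in all 5 scaRNA rows and in 9 of 11 snRNA rows, whereas most abundant Snord rows have both Dcr WT points to the right of the Dcr KO points.

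The lncRNAs taken in by name gave no call. Mirt1 stood at 68.4 and 184 and 210.3, 92.4 and 147, with overlap (0.33, adjusted p = 0.621), and Mirg is described with its locus.

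Host genes were compared where the annotation has a gene around the member. Of the members, 55 lie in a gene on the same strand or on a strand not given, and for 19 of these the gene had a row that could be matched by symbol. Members without such a host row had the higher levels: 16 of 36 had a mean above 1000 normalised counts, against 5 of 19 with one and 7 of 45 with no gene around them on that strand, 3 of which lie opposite to a gene. Rows of Snhg1, Snhg12, Snhg4, H19, Rnf213 and Srcap, which are annotated around Snord22, Snord99, Mir1949, Mir675, Mir1932 and Snora30, were not analysed here because no row matched those symbols.

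For 15 pairs the member could be expressed as a percent of its host's normalised count in each library. In 6 pairs all knockout lines were lower than both wild-type libraries, in 3 all were higher, and 6 overlapped. The ratios were not tested, and no share over other gene pairs was counted. Strand was not given for Snord17, Scarna13, Snord87 and Mir684-1 among the lower pairs and Mir3079 among the higher. Snord87 exceeded its host Mcmdc2 in every library (2974% to 7654%) and also lies in Snhg6. Mir3079 was 73.3% and 31.7% of Spatc1 in Dcr WT and 426%, 369% and 181% in Dcr KO. Snord17 lies in Snx5, a sorting nexin gene that did not pass the test (0.07, adjusted p = 0.766), and was 0.489% and 0.458% of it in Dcr WT and 0.199%, 0.189% and 0.210% in Dcr KO. Scarna13 lies in Snhg10 and was 61.9% and 67.2% of it in Dcr WT and 33.5%, 46.7% and 43.4% in Dcr KO. Snord17 was thus called lower while its host row was not. The Snhg10 row was not called either (−0.51, adjusted p = 0.180), but it moved the same way as Scarna13. It stood at 227 and 370 in Dcr WT and at 207, 199 and 203 in Dcr KO. Its log2 fold change came to −0.86 with library 1 of Dcr WT dropped and to −0.16 with library 2 dropped. The Scarna13 call itself was lost in fits without 1 library, as given above. Mir138-2 was 0.233% and 0.246% of the nucleoporin gene Nup93 in Dcr WT and 0.126%, 0.0988% and 0.148% in Dcr KO.

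In the opposite direction, Mir425 was 1.13% and 1.36% of Dalrd3 in Dcr WT and 2.01%, 2.62% and 2.34% in Dcr KO, although neither row was called. Mir331 was 9.70% and 12.0% of Vezt in Dcr WT and 13.1%, 14.6% and 13.0% in Dcr KO. Mir582 moved with its host, at 1.87% and 3.30% of Pde4d in Dcr WT and 2.91%, 3.46% and 3.08% in Dcr KO. Mir453 exceeded its annotated host Mirg in every library, at 951% to 1312% of it. Part of the reads on the Mir453 row were therefore not counted on the Mirg row.

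Genes of microRNA production changed in shares near those over all features. Of 20 on a list, all were tested, 4 (20%) were higher and 3 (15%) lower, against 16.9% and 14.8%, with a median log2 fold change of 0.08, the same as over all features. Dgcr8, the partner of Drosha, rose from 15553 and 15010.4 to 26105, 28476 and 23777 (0.77, adjusted p = 0.00323), and Ago1 rose (1.70, adjusted p = 6.90e-05). Ago4 (0.81) and Lin28b (0.58) were called higher but lost the call without Dcr WT library 1 or any 1 line (up to 0.127 and 0.192). Lin28a, whose protein blocks let-7 processing, fell from 78023 and 102819 to 13160.4, 8977 and 3437 (−3.60, adjusted p = 0.000475), and the Dicer partner Tarbp2 fell (−0.74, adjusted p = 0.004903) beside Dicer1. Drosha stood at 77008 and 64552 and 92646, 94942 and 78539 and was not called (0.33, adjusted p = 0.128).

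Several genes for proteins that build small nucleolar ribonucleoproteins were lower. Of 21 genes on that list 19 were matched and tested, and 0 were higher and 12 lower (63.2%, against 14.8% over all features), with a median of −0.57. At an unadjusted p under 0.05 Nop58 was higher, and edgeR and DESeq2 each called 1 gene higher. Nop10, a core protein of H/ACA particles, fell from 23755 and 24921 in Dcr WT to 8455, 8298 and 7958 in Dcr KO (−1.56, adjusted p = 6.85e-05), and Nhp2 of the same particle from 66713 and 49078 to 29519, 28011 and 20191 (−1.16, adjusted p = 0.00257). Rrp9, a protein of the U3 particle, fell (−1.07, adjusted p = 0.00102), as did the assembly factor gene Znhit3 (−1.05, adjusted p = 0.00214). The catalytic subunit gene Dkc1 was not called (0.08, adjusted p = 0.716). Without Dcr KO line 3 or 4 the list had 6 and 7 lower calls, and the 6 lost without line 3 were Gar1, Naf1, Shq1, Znhit6, Ruvbl1 and Coil. Over all features the lower calls fell from 6273 to 3847 and 4275 in the same fits. Nop58, a core protein of C/D particles, stood at 33417 and 33392 and 48962, 48382 and 38749 (0.43, adjusted p = 0.0517).

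The cMyc pair asks whether the same features differ when Myc is deleted. With 1 library per genotype there is no replicate check and no test, so each ratio of cMyc KO over cMyc flox is given with its exact 95% interval, which covers counting error only. A feature counted as changed at 2-fold or more with at least 20 reads over both libraries. Among 17631 features with enough reads, 1.75% were higher and 2.4% lower by this rule, and the median ratio was 1.05. Of the 72 microRNA rows 40 had enough reads, and 1 was higher and 2 lower. Of the 28 nucleolar rows 11 had enough reads, with 1 higher and 0 lower.

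Mir9-1 was the microRNA feature past 2-fold upward. Its normalised read count was 6.32 and 75.2 in cMyc flox and KO, from 6 and 83 reads, a ratio of 11.9 (interval 5.24 to 33.3). In the Dcr comparison the same feature was lower in each knockout line. Mir9-3 stood at 13.7 and 9.06 (ratio 0.661, interval 0.2596 to 1.63), so that the share from Mir9-1 was 31.6% in cMyc flox and 89.2% in cMyc KO. Mir322, of a microRNA cluster on the X chromosome, was lower, with 28 and 12 reads (ratio 0.368, interval 0.171 to 0.748). Mir674 was lower too, with 36 and 20 reads (0.478, interval 0.262 to 0.848). Neither Mir322 (0.88, adjusted p = 0.233) nor Mir674 (0.08, adjusted p = 0.7797) was called in Dcr KO. The log2 fold change of Mir322 there was 1.65 without Dcr WT library 2.

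Several abundant microRNA features stood near 1 in the pair. Mir1932 had a ratio of 1.200 (interval 1.14 to 1.26), Mir290a of 1.14 (0.999 to 1.29), Mir675 of 1.04 (1.004 to 1.08) and Mir18b of 1.15 (0.818 to 1.63). Mir34a was below 1 at 0.7001 (0.634 to 0.773), as were Mir1949 at 0.6298 (0.516 to 0.767) and Mir101a at 0.546 (0.404 to 0.736). Of 9 microRNA features called higher in Dcr KO that had 20 reads here, 3 had a ratio above 1, and of 7 called lower, 4 did. At the Dlk1-Dio3 locus 9 microRNA features had enough reads, and their median ratio was 1.11. Among them Mir453 was above 1 at 1.54 (1.34 to 1.79), from 293 and 526 reads. Mir155 and Mir1195 were below 20 reads.

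Among snoRNAs the ratios were mostly below 1. Of 9 with enough reads 8 were below 1, and for 7 of those the interval lay below 1, though none reached 2-fold. The lowest were Snord49b at 769 and 438 (ratio 0.569, interval 0.506 to 0.639), Snord99 at 327 and 203 (0.621, 0.521 to 0.7402) and Snord22 at 1832 and 1175 (0.642, 0.597 to 0.6899). All 5 snoRNAs that were called lower in Dcr KO and had enough reads here, Snord49b, Snord99, Snord22, Snord87 and Snord52, had intervals below 1. Snord93 (0.764, 0.625 to 0.933) and Snord104 (0.783, 0.619 to 0.989), not called in Dcr KO, had intervals below 1 as well. The share of all features with an interval below 1 was not counted. Snora30 had a ratio of 1.03 (1.002 to 1.06). The nucleolar row past 2-fold was a copy of Rnu2, the U2 snRNA, with 6 and 14 reads (2.01, interval 0.724 to 6.37), an interval that includes 1. The lncRNA Mirt1 was past 2-fold downward with 16 and 9 reads (0.484, interval 0.188 to 1.16).

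**Figure D5:**
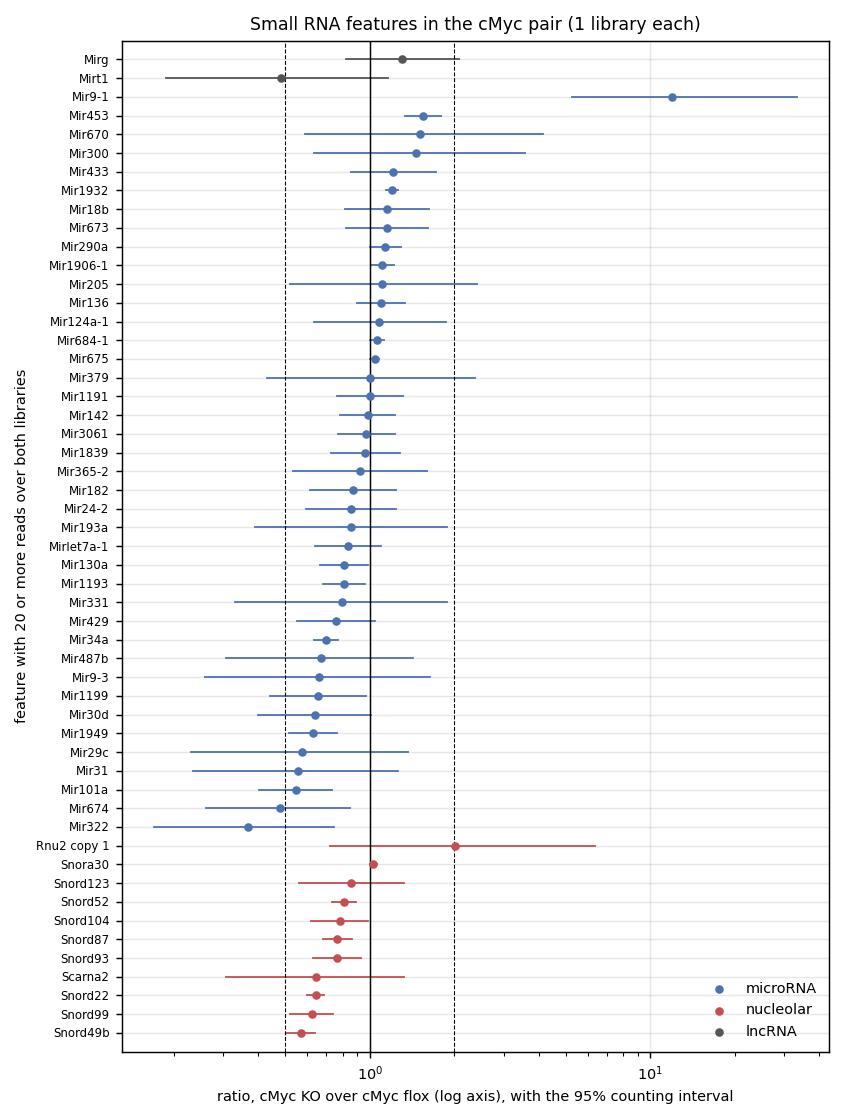
Ratio of normalised read counts, cMyc KO over cMyc flox, on a log axis for the 53 members with 20 or more reads, with 1 point per feature and horizontal bars for the 95% counting interval (1 library per genotype). The solid line is a ratio of 1 and the dashed lines are 2-fold either way, and Mir9-1 is the farthest point at 11.9.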

How the data were processed

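The members and lists were chosen with earlier results of these data known. The submitters' processing notes name TopHat, Bowtie and DESeq, and the build mm9, without roles, order or versions. The authors deposited a signal per feature: read counts divided by 1 factor per library. In all 7 RNA columns 100% of values were whole reads within 0.01 read, and these reads gave the depth, floors (3 reads) and cMyc intervals. The sources used here do not give whether counting used strand or how multiply mapped reads were treated, so near-identical copies and overlapping features are uncertain. Symbols came from RefSeq GRCm38.p6 for 20203 of 20803 Dcr identifiers and 16856 of 17350 cMyc identifiers, used for names and neighbours only. The column name of Dcr WT library 1 alone ends in _1, those of the other 4 Dcr libraries end in _2 and those of the cMyc pair have no such ending, which no label explains, and 0 value columns lacked a sample.

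Dcr KO was compared with Dcr WT by limma 3.58.1 (R 4.3.3, trended empirical Bayes) on log2(value + 1), over the 42358 features that reached a value of 1 in 2 or more libraries. P-values were adjusted by Benjamini-Hochberg, with 0.05 as the threshold, and the fit was tested on simulated data. Alternatives were other pseudocounts, filters and scalings, edgeR 4.0.16, DESeq2 1.42.0 and leaving out each library. The cMyc pair has no test: ratios have exact conditional binomial intervals. Named with values were all called members, the 10 with the highest mean per class, ESC microRNA families, members past 2-fold in the cMyc pair, hosts, and the 4 largest changes per direction of each list. Names outside this rule were chosen after their values were seen.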

Additional observations from a re-analysis of the deposited data

How the results depend on the processing

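Of the 39 called members, 22 kept their call under all 14 alternatives, 14 lost it without some library, 14 with no filter on low values, 6 under another scaling, 3 with edgeR and 1 with DESeq2. The number of microRNA features called higher, 19, ran from 13 to 23 over the alternatives. The number called lower, 13, was 8 with no filter on low values and 7 to 12 with 1 library left out. In the nucleolar class 0 were called higher, but 1 with a filter of at least 10 in 2 libraries, 1 with upper quartile and 1 with coding-feature scaling, and 0 to 2 with 1 library left out. The 7 called lower became 12 with edgeR, 11 with DESeq2, and 4 to 13 with 1 library left out.

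Of the microRNA production list, the 4 called higher became 2 with total count scaling, 2 with edgeR and 2 to 6 with 1 library left out. Of the small nucleolar particle list, 0 were called higher, but 1 with a pseudocount of 5, with the filter of at least 10, with total count, upper quartile or coding-feature scaling, with edgeR and with DESeq2, and 0 to 1 with 1 library left out. Its 12 lower calls became 6 to 11 with 1 library left out. At the Dlk1-Dio3 locus the sign turned and a call appeared for 6 members without Dcr KO line 1. With all 5 libraries the sign of all 11 also turned in edgeR (0.26 to 1.296) and DESeq2 (0.31 to 1.39), with no call. With 1 library left out the log2 fold change ran from −2.16 to 1.35 for Mir136, from −2.93 to 1.28 for Mir433, from −2.34 to 1.24 for Mir453, from −2.08 to 1.65 for Mir487b, from −2.09 to 1.504 for Mir673 and from −2.29 to 1.31 for Mirg. In each the highest value is that without line 1.

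In the cMyc pair the 1 microRNA feature higher became 3 at 1.5-fold and 2 with at least 10 reads, and the 2 lower became 9 at 1.5-fold, 0 at 3-fold and 1 with at least 50 reads. The 1 nucleolar row higher became 0 with total count or coding-feature scaling, 0 at 3-fold, 2 with at least 10 reads and 0 with at least 50. The 0 lower became 4 at 1.5-fold and 2 with at least 10 reads. The cause of these shifts was not tested beyond what each alternative sets. Depth limits the rows with few reads, among them most snRNA rows, and the 32 microRNA rows of the cMyc pair with under 20 reads. No paired analysis was possible because the Dcr WT and Dcr KO libraries share only the number 1.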

Other observations

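Several microRNA features that limma did not call with all 5 libraries moved further in a fit without 1 of the wild-type libraries. They were chosen here after their values were seen. Such a fit leaves 1 wild-type library, so only log2 fold changes are given for it. Mir142, known from blood cells, stood at 103 and 224 in Dcr WT and 65.7, 44.3 and 84.9 in Dcr KO (−1.26, limma adjusted p = 0.05196). With all libraries it was called lower by edgeR (adjusted p = 0.0255) and DESeq2 (adjusted p = 0.0159), and limma gave −1.82 without Dcr WT library 1. The blood marker Ptprc stood at 0 and 11.9 and 0, 1.53 and 0, and Mir142 had normalised read counts of 156 and 153 in cMyc flox and KO. Mir182, of a cluster known from sensory organs, stood at 708 and 1110.1 and 1167, 1055 and 1048, with a log2 fold change of 0.62 without Dcr WT library 2. Mir130a stood at 1483 and 2485 and 2275, 2304 and 2795, and Mir1199 at 1646 and 905 and 1011, 767 and 931. Without the same library they were at 0.72 and −0.87. In the full fit the last 3 had adjusted p of 0.327, 0.263 and 0.221.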
